A study of Mus musculus with 17 samples.

Results

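The Dlk1-Dio3 cluster miRNAs are microRNAs whose genes lie in an imprinted domain of mouse chromosome 12, between the gene for the growth regulator Dlk1 and that for the thyroid hormone deiodinase Dio3. They were taken from a table of small RNAs (smRNAs) in exosomes, small vesicles shed by cells, prepared from mouse feces. Members were all rows, of either hairpin arm, whose hairpin number belongs to a fixed list of cluster numbers. This gave 67 of the 1487 smRNAs in the table, of which 30 were 5p arms, 35 were 3p arms and 2 had no arm in their name. The 67 rows came from 44 hairpins, and 23 hairpins had rows for both arms. In the RefSeq annotation of GRCm38.p6, 66 rows belong to genes on chromosome 12. The remaining row, miR-496b, goes against the label, because its gene lies on chromosome 19 from 16314892 to 16315004, on the minus strand within an intron of Gnaq. It was not called in any comparison below between time points or sexes.

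All mice lacked interleukin 10 (IL-10 KO) on a C57BL/6J background, a model in which bowel inflammation develops, and the study followed fecal smRNAs from a start-point to an end-point of the disease. Mice came at 4 weeks of age and were housed singly, and ages at collection were not given in the sources used here. The start-point group held 10 libraries from 7 males and 3 females, and the end-point group held 7 libraries, 5 from males and 2 from females. The labels name 10 mice, 6 of them with both time points, and end-point libraries 1 and 2 both carry the label of mouse 1. No wild-type library was analysed here. Because every group lacks interleukin 10, an effect of that loss could not be compared. A table of smRNAs holds no protein marker of exosomes, so the vesicle label was not checked.

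In this domain the protein-coding genes Dlk1, Rtl1 and Dio3 are known to be expressed from the paternal chromosome, whereas Meg3, Rian, Mirg and the miRNAs are expressed from the maternal one. The miRNAs are thought to be cut from long noncoding transcripts, and each hairpin can release a 5p and a 3p arm. An arm recognises messenger RNAs mainly through its seed, which is bases 2 to 8. The cluster is best known from embryo, placenta and brain, and those of its miRNAs that lie opposite Rtl1 are fully complementary to the Rtl1 message and direct its cleavage.

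Of the 61 miRNA genes annotated between Dlk1 (12:109452485-109463336) and Dio3 (12:110279230-110281097), 51 carried a number in the list and 43 had at least 1 row. Members were put in 3 groups by the noncoding transcripts. The Meg3 to anti-Rtl1 group, with 18 rows, includes Mir770, in an exon of Meg3, and Mir127, Mir136, Mir431, Mir432, Mir433 and Mir434, which lie opposite an exon of Rtl1. The Rian group, with 3 rows, comes from Mir341 and Mir370, both in introns of Rian. The Mirg group, with 45 rows, runs from Mir379 to Mir369, and those at its 3' end, such as Mir134, Mir369 and Mir412, overlap exons of Mirg in GENCODE vM21 while those at its 5' end are annotated as intergenic.

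Mature sequences were found in RefSeq for 65 of the 67 members, with miR-485-5p and miR-539-3p named only. Lengths ran from 18 to 26 bases. The 10 members called higher at the end-point are shown first because the largest changes were among them, 5' to 3' with the seed in capitals.
miR-1193-3p: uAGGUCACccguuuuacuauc
miR-369-3p: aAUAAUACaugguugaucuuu
miR-432: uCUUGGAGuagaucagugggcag
miR-758-3p: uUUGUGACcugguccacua
miR-411-3p: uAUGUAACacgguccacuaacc
miR-412-3p: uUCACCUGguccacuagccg
miR-679-3p: aGCAAGGUccuccucacaguag
miR-540-3p: aGGUCAGAggucgauccugg
miR-127-3p: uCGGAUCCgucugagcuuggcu
miR-409-3p: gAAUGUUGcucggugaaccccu

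The 7 members called lower at the end-point follow in the same format.
miR-770-5p: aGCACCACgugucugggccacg
miR-370-5p: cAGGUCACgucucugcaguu
miR-673-3p: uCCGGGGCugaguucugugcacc
miR-543-5p: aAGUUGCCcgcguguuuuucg
miR-431-5p: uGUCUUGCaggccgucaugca
miR-494-3p: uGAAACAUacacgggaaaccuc
miR-300-3p: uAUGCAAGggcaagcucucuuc

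A further 3 members are shown because they share a seed or most of their sequence with one of these or with each other.
miR-1193-5p: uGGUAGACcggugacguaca
miR-379-5p: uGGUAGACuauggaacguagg
miR-381-3p: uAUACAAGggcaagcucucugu

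The 65 sequences held 63 different seeds, so most members differed from one another in the part that recognises targets. Only 2 seeds occurred in more than 1 member. The seed AGGUCAC was common to miR-1193-3p, which was called higher, and miR-370-5p, which was called lower. The seed GGUAGAC was common to miR-1193-5p and miR-379-5p. MiR-412-3p and miR-758-3p shared a run of 13 bases that begins within the seed of each, and the 9 bases GGUCCACUA occurred in miR-411-3p, miR-412-3p and miR-758-3p, all 3 of which were called higher. These 9 bases, searched as written in the mature strand, occurred in 4 of 1679 mouse mature miRNAs (0.238%), and the run was picked out after the values had been seen. MiR-300-3p and miR-381-3p differed at 3 of 22 positions and shared 16 bases in a row, so reads of the pair could be split between them and their values are uncertain to that degree.

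Library totals ran from 32320 to 178075 counts, and 3 libraries, end-point 1, 3 and 7, held fewer than 75000. These 3 had Spearman correlations of 0.605 to 0.748 with one another across smRNAs and 0.25 to 0.529 with the other end-point libraries. Start-point libraries 1, 6 and 7 likewise stood apart, with correlations of 0.856 to 0.893 among themselves and 0.381 to 0.682 with the other start-point libraries. Called members whose value moves by over 1.5 times without either trio are given with and without it. A count of 3, taken as the floor, corresponded to a CPM of 16.9 to 92.8. Levels are given as CPM, counts scaled to a common library total, not divided by miRNA length. In such bulk material, fewer vesicles from a cell type and less miRNA per vesicle cannot be told apart.

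Cluster miRNAs held a few percent of every library. At the start-point their share of counts was 3.09 ± 0.65% (SD, n = 10), from 1.98 to 3.82%. At the end-point it was 4.64 ± 2.72% (SD, n = 7), from 2.34 to 8.98%. The ranges overlapped, and 5 of the 7 end-point libraries lay between 2.34 and 3.37%. The high values were 8.17% in end-point library 2 and 8.98% in end-point library 5. The difference between the means was 1.54 percentage points, and 2.62 without the 3 low-depth libraries. MiR-1193-3p alone made up 72.3% of the member counts in the former and 49.5% in the latter. With miR-1193-3p and miR-411-3p left out, a choice made after the values were seen, start-point libraries averaged 3.00 ± 0.65% (SD, n = 10) and end-point libraries 2.35 ± 0.53% (SD, n = 7).

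**Figure D1:**
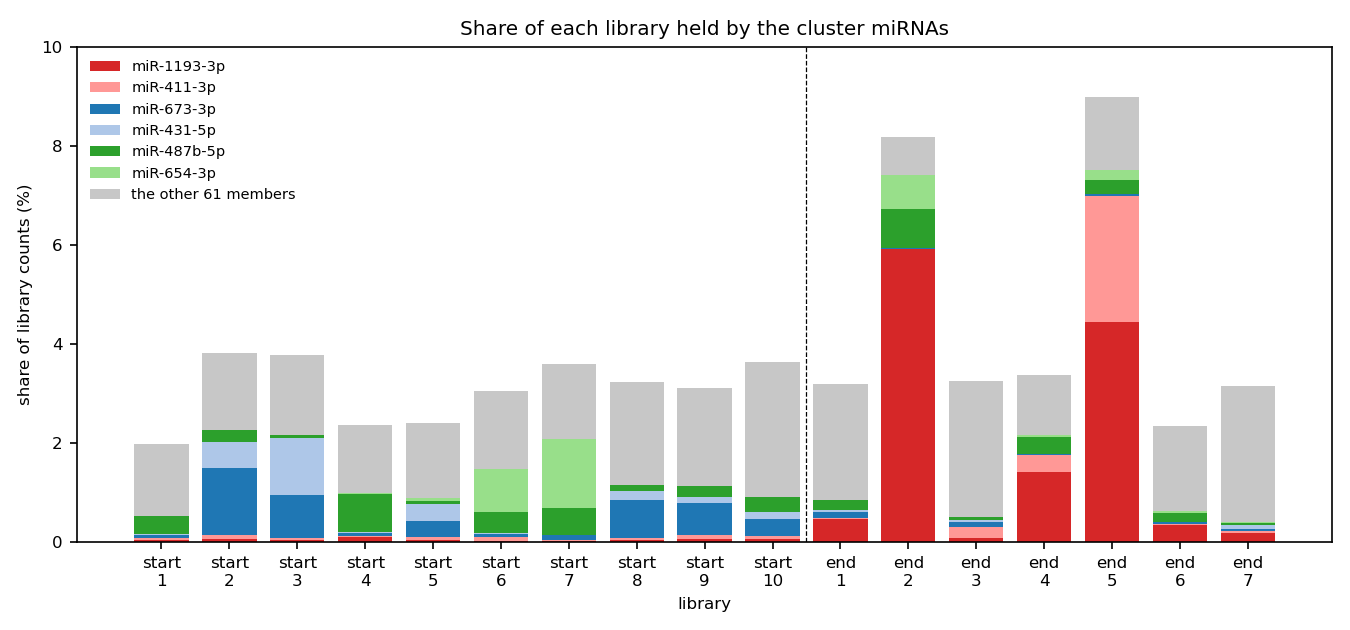
Share of each library's counts, in percent, held by the 67 cluster miRNAs, with 6 of them coloured and the other 61 in grey; each bar is 1 library. End-point libraries 2 and 5 reach 8.17 and 8.98%, mostly miR-1193-3p and, in library 5, miR-411-3p, while the start-point libraries lie between 1.98 and 3.82%.

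Most members were present at low levels, and fewer were detected at the end-point. A count was found for 31 of the 67 members in all 17 libraries. After random thinning of each library to 32320 counts, start-point libraries held 57 to 64 detected members and end-point libraries 40 to 56, with no overlap. The same held for all smRNAs, with 1291 to 1425 at the start-point and 1014 to 1270 at the end-point. The lower number of members thus went together with a lower number over the whole table.

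The composition of the cluster signal varied between libraries of 1 time point. MiR-673-3p was the most abundant member in start-point libraries 2, 5, 8, 9 and 10. MiR-431-5p led in start-point library 3, miR-487b-5p in 1 and 4, and miR-654-3p in 6 and 7. At the end-point miR-1193-3p led in libraries 2, 4, 5 and 6, miR-412-3p in library 1, miR-758-3p in library 3 and miR-127-3p in library 7. Thus no member led throughout, and the leading members differed between the start-point trio that stood apart and most other start-point libraries.

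Across the start-point libraries, pairs of members were correlated about as weakly as pairs of smRNAs in general. Over 10 libraries, which differ in depth and composition, the median Spearman correlation was -0.02 among the 1431 pairs of tested members and 0.01 among all pairs of tested smRNAs. The 2 arms of a member hairpin had a median of 0.13 over 15 hairpins, beside 0.05 over 334 hairpins of all kinds. These values are descriptive.

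Between time points, members were called in both directions at about the rate of the whole table. Of the 67 members, 54 passed the filter on low counts. In edgeR's quasi-likelihood test with Benjamini-Hochberg adjustment over 1270 smRNAs, 10 members were higher and 7 lower at the end-point at an adjusted p under 0.05. That is 31.5% of the members tested, beside 33.7% of all smRNAs tested, of which 17.4% were higher and 16.3% lower. The median log2 fold change was -0.15 over the members and -0.18 over all smRNAs. Scaling by library totals alone moved the median of all smRNAs to -0.65 and that of the members to -0.58, and gave 7 members higher and 12 lower, beside 12.0% and 25.7% of all smRNAs. DESeq2 gave 11 higher and 11 lower, beside 41.0% of all smRNAs called, 18.7% higher and 22.4% lower. With mouse as a block, 3 members were higher and 3 lower, beside 8.19% of all smRNAs called, 3.78% higher and 4.41% lower. Without the 3 low-depth libraries 11 were higher and 5 lower, beside 18.4% and 15.2% of all smRNAs. Without start-point libraries 1, 6 and 7, 9 were higher and 4 lower, beside 15.3% and 13.0%, and in males only 6 were higher and 4 lower, beside 11.2% and 6.33%.

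Called members were spread along the cluster. In the Meg3 to anti-Rtl1 group 3 of 16 tested were higher (miR-540-3p, miR-127-3p and miR-432) and 3 lower (miR-770-5p, miR-673-3p and miR-431-5p). In the Rian group 1 of 3 tested, miR-370-5p, was lower. In the Mirg group 7 of 34 tested were higher and 3 lower. Group medians were -0.23, -1.12 and 0.07 on the log2 scale, and a difference between groups was not tested.

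**Figure D2:**
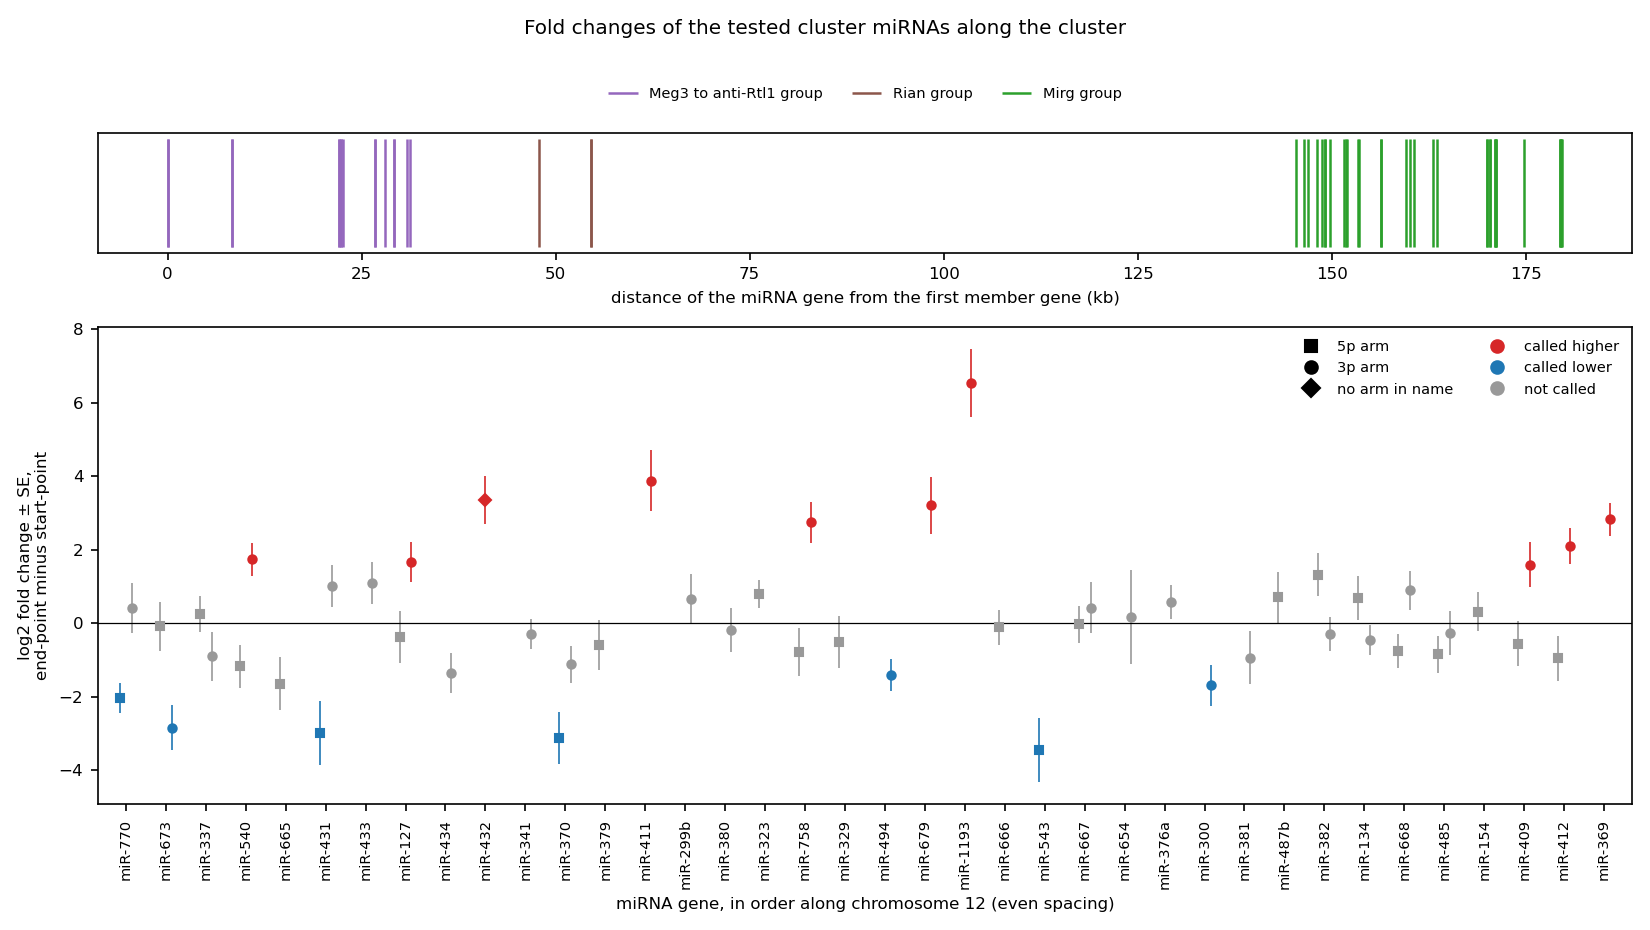
The upper panel marks tested members' genes by distance in kb from the first member gene, Mir770; the lower panel gives each tested member's log2 fold change with its SE, end-point minus start-point, in gene order. The 10 members called higher and the 7 called lower are interspersed, from miR-770-5p at -2.04 at one end to miR-369-3p at 2.82 at the other.

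Among the members called higher, miR-1193-3p showed the largest difference. Its gene, Mir1193 (12:109715671-109715791, plus strand), is annotated as intergenic upstream of Mirg, and the mature 3p arm maps to 12:109715750-109715770. It was at 210 to 859 CPM at the start-point, with a median of 406. End-point libraries 1 to 7 had 4566.5, 59112, 804, 13989, 44482, 3389.7 and 1848 CPM. Only end-point library 3 was below the highest start-point library, and the level was higher at the end-point in 6 of 6 mice, with the libraries labelled mouse 1 averaged. The log2 fold change was 6.55 ± 0.93 (SE), with an adjusted p of 2.6e-05 in edgeR, and 4.97 with mouse as a block, at an adjusted p of 0.048. Without end-point library 2 the value was 5.38, at an adjusted p of 5.3e-05, without the low-depth libraries 7.44 and with library totals 5.45. The libraries labelled mouse 1 differed from each other by more than any start-point pair, at 4566.5 and 59112 CPM.

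The other arm of this hairpin, miR-1193-5p, did not pass the filter on low counts. It stood at 0 to 57.1 CPM in start-point libraries and at 420, 123.6, 1764, 265, 33.8, 99.3 and 1472 CPM in end-point libraries 1 to 7. Its levels were higher at the end-point in 6 of 6 mice. The order of libraries was not that of the 3p arm, since the 5p arm was highest in end-point libraries 3 and 7, where the 3p arm was low.

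MiR-369-3p, known for acting on the AU-rich element of the message for the inflammatory cytokine TNF, was also higher at the end-point. It was at 64.4 to 256 CPM, median 117, at the start-point and at 54.8, 278, 433.2, 736, 1055, 636 and 893 CPM in end-point libraries 1 to 7. Only end-point library 1, with 3 counts, was not above the start-point range. On the log2 scale the difference was 2.82 ± 0.46 (SE), at an adjusted p of 1.1e-04, with the end-point higher in 6 of 6 mice. With mouse as a block the value was 2.49, at an adjusted p of 0.041, but with the block and only 1 of the libraries labelled mouse 1 it was 2.29, at an adjusted p of 0.084. Without mouse as a block, it was 3.43 without the low-depth libraries. Its sequence had the lowest GC content of the members, 23.8% against a median of 52.4%.

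MiR-758-3p was the third member that was higher in 6 of 6 mice and stayed called with mouse as a block. It was at 39.3 to 268 CPM, median 68.2, at the start-point and at 130 to 3187 CPM, median 278, at the end-point. End-point library 3 gave the highest value, from 103 counts, and the ranges overlapped. The log2 fold change was 2.75 ± 0.56 (SE), at an adjusted p of 8.1e-04, and 2.10 without end-point library 3, at an adjusted p of 0.0036. Without start-point libraries 1, 6 and 7 it was 3.63.

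MiR-411-3p was called higher although its median was lower at the end-point. At the start-point it was at 198 to 765 CPM, median 502. In end-point libraries 1 to 7 it was at 201, 123.6, 2166, 3525, 25364, 278 and 266 CPM, so 3 libraries were above the start-point range and 4 were within or below it. On the log2 scale the difference was 3.88 ± 0.83 (SE), at an adjusted p of 0.0012, and was 1.81 without end-point library 5, at an adjusted p of 0.024, and 4.70 without the low-depth libraries. With mouse as a block it was 1.21, at an adjusted p of 0.43, and 3 of 6 mice were higher.

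MiR-679-3p was high in 2 end-point libraries. It was at 74.3 to 338 CPM at the start-point and at 201, 3039.6, 186, 188, 1359, 39.7 and 157 CPM in end-point libraries 1 to 7, with only libraries 2 and 5 above the start-point range. The log2 fold change was 3.21 ± 0.77 (SE), at an adjusted p of 0.0029. Without end-point library 2 it was 1.43, at an adjusted p of 0.079, and with mouse as a block 1.54, at an adjusted p of 0.25. Without the low-depth libraries it was 4.08 and without start-point libraries 1, 6 and 7 it was 3.82.

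MiR-432, which lies opposite Rtl1, was high only in the 3 end-point libraries with fewer than 75000 counts. There it was at 2502, 2877.5 and 2145 CPM, from 93 counts or more in each, whereas the other 4 end-point libraries had 17.1 to 79.4 CPM and the start-point libraries 33.7 to 232. The medians of the time points were 77.7 and 79.4 CPM. The log2 fold change of 3.36 ± 0.65 (SE), at an adjusted p of 5.5e-04, became -0.07 without these 3 libraries, at an adjusted p of 0.90. It was 2.08 with mouse as a block, at an adjusted p of 0.24.

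MiR-412-3p and miR-127-3p were high in the same libraries. MiR-412-3p was at 175 to 648 CPM at the start-point, and end-point libraries 1, 3 and 7 had 5114, 2599 and 1613 CPM while the others had 49.4 to 886. Its log2 fold change of 2.10 ± 0.48 (SE), at an adjusted p of 0.0019, was 0.95 without the trio, at an adjusted p of 0.090. MiR-127-3p, known to direct cleavage of the Rtl1 message, was at 225 to 2073 CPM at the start-point. It was at 4183, 1764 and 7908 CPM in end-point libraries 1, 3 and 7 and at 130 to 1086 in the others. Its log2 fold change of 1.66 ± 0.54 (SE), at an adjusted p of 0.021, was 0.34 without the trio, at an adjusted p of 0.62, and 0.96 without end-point library 7 alone, at an adjusted p of 0.13. It was 1.36 without start-point libraries 1, 6 and 7, at an adjusted p of 0.099.

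The last 2 members called higher had smaller differences. MiR-540-3p was at 163 to 1269 CPM, median 480, at the start-point and at 248 to 2993 CPM, median 1072, at the end-point, with overlapping ranges. Its log2 fold change was 1.74 ± 0.45 (SE), at an adjusted p of 0.0050, with 5 of 6 mice higher. It was 1.61 with mouse as a block, at an adjusted p of 0.079, 1.14 with library totals, at 0.095, and 1.27 in males only, at 0.082. MiR-409-3p was at 10.7 to 153.7 CPM at the start-point and at 0 to 282 CPM at the end-point. Its log2 fold change was 1.60 ± 0.62 (SE), at an adjusted p of 0.046, and the call was lost in 9 of the 14 fits that left out 1 library and still tested it. These left out start-point library 1, 3, 5, 6, 7, 8 or 10 or end-point library 4 or 6, with log2 fold changes of 1.10 to 1.61 and adjusted p of 0.059 to 0.18. Without start-point libraries 1, 6 and 7 the value was 1.28, at an adjusted p of 0.16.

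**Figure D3:**
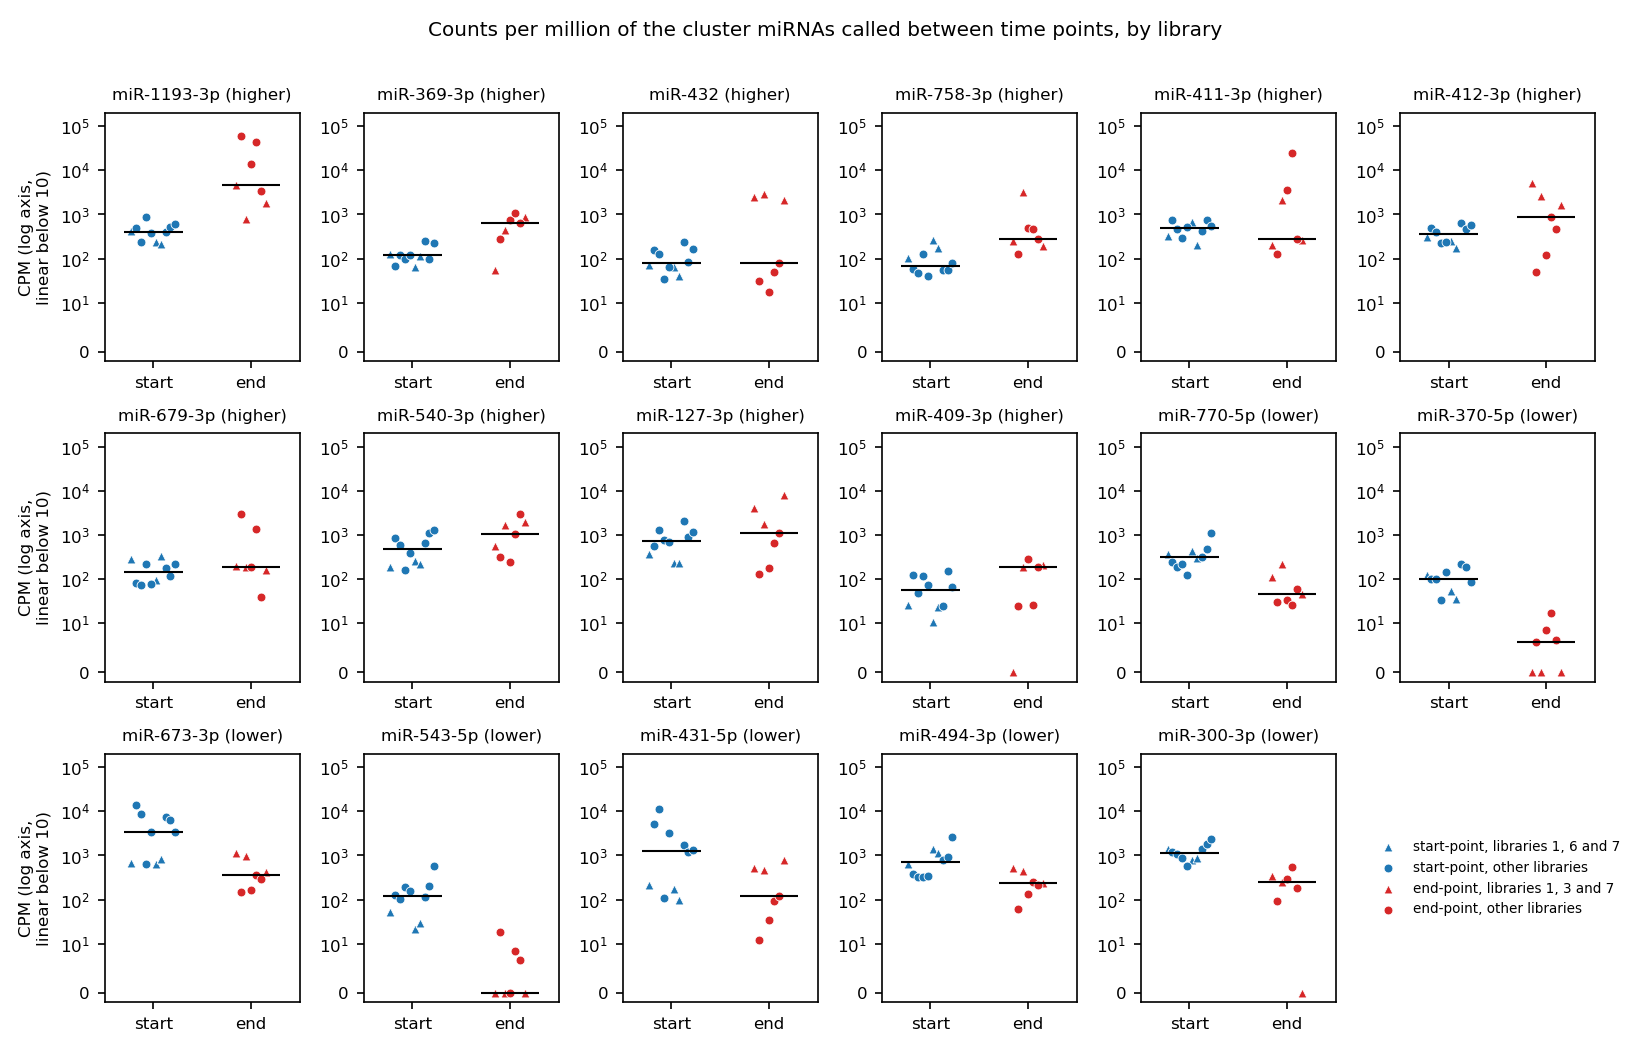
CPM of the 17 called members in each library, on a log axis that is linear below 10; bars are medians, triangles are start-point libraries 1, 6 and 7 and end-point libraries 1, 3 and 7, and the other libraries are circles. MiR-370-5p, miR-543-5p and miR-300-3p do not overlap between time points, and miR-432 is at 2145 CPM or more in the 3 end-point triangles only.

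The members called lower included all 3 whose CPM ranges did not overlap between time points, miR-300-3p, miR-370-5p and miR-543-5p. Over all tested smRNAs the ranges did not overlap for 5.59%, and 5.12% were without overlap and lower. No member was without overlap and higher, beside 0.472% of all tested smRNAs. MiR-370-5p and miR-543-5p, at no more than 3 counts in any end-point library, passed the filter on low counts only through the start-point libraries, so the filter favours their lack of overlap in this direction.

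MiR-370-5p, from an intron of Rian, was at 33.7 to 224 CPM, median 102, at the start-point, from 5 to 28 counts. At the end-point it was at 0, 6.18, 0, 8.56, 16.9, 6.62 and 0 CPM in libraries 1 to 7, at most 2 counts, and 3 libraries were at 0. On the log2 scale the difference was -3.13 ± 0.70 (SE), at an adjusted p of 0.0011, and it was lower in 6 of 6 mice. It was -3.58 with mouse as a block, at an adjusted p of 0.027, and -2.34 without the low-depth libraries. All end-point values lay under the floor of 3 counts, so the size of the difference is poorly determined. The 3p arm, miR-370-3p, was also lower in 6 of 6 mice but did not pass, at -1.12 ± 0.51 (SE, adjusted p = 0.083).

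MiR-543-5p was at 21.5 to 591 CPM, median 119, at the start-point. At the end-point 4 libraries were at 0 and the others at 6.62 to 18.5 CPM, at most 3 counts. The log2 fold change was -3.46 ± 0.87 (SE), at an adjusted p of 0.0029, and -3.25 with mouse as a block, at an adjusted p of 0.069. It was -4.56 without end-point library 2 and -2.63 without the low-depth libraries. It was lower in every mouse with both time points.

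MiR-300-3p was at 577 to 2343 CPM, median 1137, at the start-point. End-point libraries 1 to 7 had 347, 92.7, 248, 299.4, 557, 185 and 0 CPM. It was lower in 6 of 6 mice, at a log2 fold change of -1.69 ± 0.56 (SE, adjusted p = 0.021). With mouse as a block the value was -2.22, at an adjusted p of 0.10. Without the 3 end-point libraries of low depth it was -1.07, at an adjusted p of 0.060, and without start-point libraries 1, 6 and 7 it was -1.58, at an adjusted p of 0.056. The near-identical miR-381-3p stood at a log2 fold change of -0.94 ± 0.72 (SE, adjusted p = 0.33).

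MiR-770-5p, whose gene lies in an exon of Meg3 (12:109563692-109563785), was lower at the end-point. It was at 124.5 to 1117 CPM, median 312, at the start-point and at 25.3 to 217 CPM, median 47.0, at the end-point. Only end-point library 3 exceeded the lowest start-point value. On the log2 scale the difference was -2.04 ± 0.41 (SE), at an adjusted p of 6.2e-04, and -1.89 with mouse as a block, at an adjusted p of 0.047. With the block and only 1 of the libraries labelled mouse 1 it was -1.87, at an adjusted p of 0.069.

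MiR-673-3p and miR-431-5p were the abundant members that were lower at the end-point, and both also differed within the start-point. MiR-673-3p was at 684, 635, 644 and 851 CPM in start-point libraries 1, 4, 6 and 7 and at 3334.6 to 13687 CPM in the other 6. At the end-point it was at 148 to 1132 CPM. The log2 fold change was -2.85 ± 0.61 (SE), at an adjusted p of 0.0013, lower in 6 of 6 mice, and -2.62 with mouse as a block, at an adjusted p of 0.041. With the block and only 1 of the libraries labelled mouse 1 it was -2.63, at an adjusted p of 0.055. MiR-431-5p was at 219, 107, 172 and 99.1 CPM in the same 4 start-point libraries, at 1191 to 11418 CPM in the other 6, and at 12.4 to 783 CPM at the end-point. Its log2 fold change was -2.99 ± 0.88 (SE), at an adjusted p of 0.012, and -2.11 with mouse as a block, at an adjusted p of 0.20. It was -2.18 without start-point library 3, at an adjusted p of 0.033, and -4.29 without the low-depth libraries. The end-point levels of both thus overlapped only the 4 low start-point libraries.

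MiR-494-3p was at 331 to 2595 CPM, median 697, at the start-point and at 61.8 to 530 CPM, median 235, at the end-point. Its log2 fold change was -1.40 ± 0.43 (SE), at an adjusted p of 0.015. It was not called with mouse as a block, at an adjusted p of 0.19, nor without start-point libraries 1, 6 and 7, at an adjusted p of 0.091, nor without the 3 low-depth end-point libraries, at an adjusted p of 0.056.

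Calls were also counted by arm. Of the 23 tested 5p members none was higher and 4 were lower, whereas of the 29 tested 3p members 9 were higher and 3 lower. Over all miRNAs 33.1% of tested 5p arms were called, 17.2% higher and 15.9% lower, and 35.6% of tested 3p arms were called, 18.5% higher and 17.1% lower. The median log2 fold change was -0.55 for 5p and 0.42 for 3p members, beside -0.20 and -0.13 for all 5p and 3p miRNAs. With library totals none of the 5p members was higher and 6 were lower, and of the 3p members 6 were higher and 6 lower. Under that scaling all 5p miRNAs were called at 12.5% higher and 26.3% lower and all 3p miRNAs at 12.1% and 26.0%. The 3p members' median turned to -0.13 and that of the 5p members was -1.01, beside -0.63 and -0.68 for all 3p and 5p miRNAs. Without the low-depth libraries 1 of 28 tested 5p members was higher and 4 lower, beside 16.6% and 14.5% of all 5p miRNAs. Of the 29 tested 3p members 10 were then higher and 1 lower, beside 21.6% and 16.2% of all 3p miRNAs. This comparison was made after the values were seen, and no test of the difference between arms was run.

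Within single hairpins the arms often pointed in opposite directions. For 15 member hairpins both arms were tested, and the fold changes of the arms had the same sign in 3 (20.0%), beside 161 of 334 hairpins of all miRNAs (48.2%). In 9 of the 15 exactly 1 arm was called, beside 139 of the 334. In none of the 15 were both called, whereas both were called in 46 of the 334. With library totals the same sign occurred in 5 of 15 and both arms were called in 2, beside 181 of 334 (54.2%) and 52 for all hairpins. Without start-point libraries 1, 6 and 7 the same sign occurred in 1 of 12, beside 45.5% of all hairpins. Without the low-depth libraries the same sign occurred in 8 of 18, beside 213 of 389 of all hairpins (54.8%), so the gap to all hairpins was smaller there. None of these differences from all hairpins was tested.

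Of these 15 hairpins, that of miR-758 had the widest change in which arm was higher. In all 10 start-point libraries the 5p arm was above the 3p arm, with means of 647 ± 365 and 101 ± 73 CPM (SD, n = 10). In 6 of 7 end-point libraries the 3p arm was above the 5p arm, with means of 712 ± 1099 and 240 ± 242 CPM (SD, n = 7). The 5p arm itself did not pass, at a log2 fold change of -0.78 ± 0.67 (SE, adjusted p = 0.38).

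Several others had the same leading arm at both time points. For miR-412 the 3p arm was above the 5p arm in all 10 start-point and 6 of 7 end-point libraries, and for miR-673 and miR-770 it was so in all 17. For miR-431 the 3p arm was above the 5p arm in only 1 of 10 start-point and 2 of 7 end-point libraries. In end-point library 4 its arms were tied at 4 counts. The 5p arms of miR-127, miR-409, miR-412, miR-540 and miR-673 had log2 fold changes of -0.37, -0.55, -0.95, -1.17 and -0.09, and none passed. The 3p arms of miR-431 and miR-770 had values of 1.00 and 0.41 and did not pass either. Without the low-depth libraries miR-431-3p was called, at 1.55 with an adjusted p of 0.021, and miR-673-5p was at -1.84 and miR-770-3p at 1.21. Without start-point libraries 1, 6 and 7 miR-540-5p was at -0.07.

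**Figure D4:**
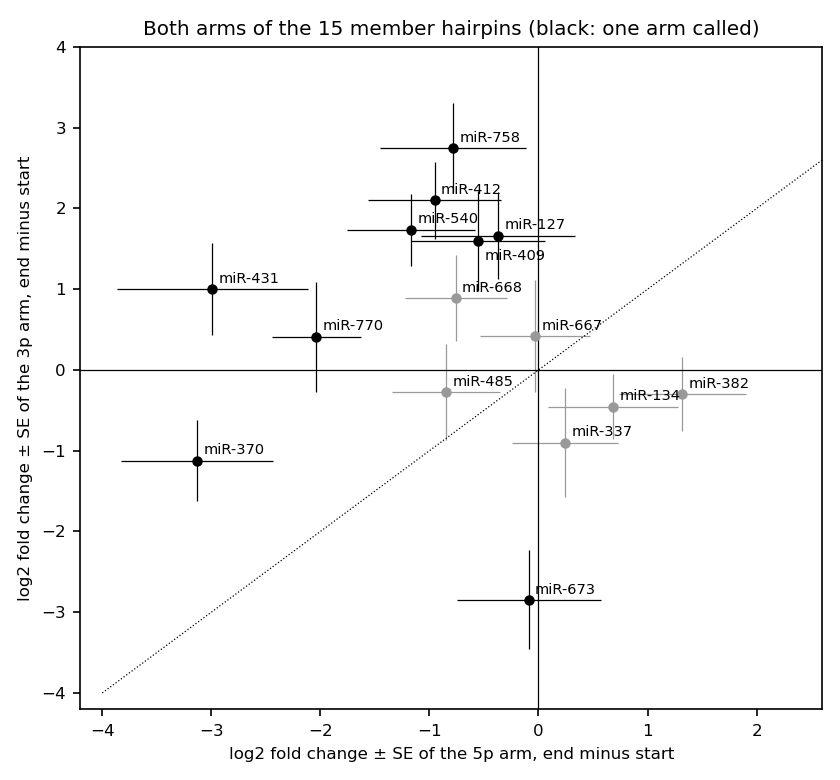
Log2 fold change with SE, end-point minus start-point, of the 5p arm (horizontal) and 3p arm (vertical) of the 15 member hairpins with both arms tested; black marks hairpins with 1 arm called and the dotted line marks equal change. Only miR-370, miR-485 and miR-673 have arms of the same sign, both negative.

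Several abundant members were not called. MiR-487b-5p was at 722 to 7665 CPM at the start-point and at 517 to 7803 CPM at the end-point, at a log2 fold change of 0.71 ± 0.70 (SE, adjusted p = 0.45), and 1.54 without the low-depth libraries. MiR-134-5p, known for limiting the size of dendritic spines in neurons, was at 118 to 2417 and 135.9 to 2582 CPM, at 0.68 ± 0.60 (SE, adjusted p = 0.39). MiR-666-5p was at 204 to 3114 and 111 to 1361 CPM, at -0.12 ± 0.49 (SE, adjusted p = 0.87). MiR-770-3p stood at a log2 fold change of 0.41 ± 0.68 (SE, adjusted p = 0.67), while its median was 991 CPM at the start-point and 402 CPM at the end-point. DESeq2 called it lower, at -1.29 with an adjusted p of 0.036.

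MiR-654-3p was carried by a few libraries at both time points. It was at 8686 and 13924 CPM in start-point libraries 6 and 7 and at 33.8 to 518 CPM in the other 8. At the end-point it was at 6889 CPM in library 2, at 1899 CPM in library 5 and at between 0 and 496.2 CPM elsewhere. On the log2 scale the difference was 0.17 ± 1.27 (SE), at an adjusted p of 0.93, and 4.43 without start-point libraries 1, 6 and 7 together, at an adjusted p of 0.011.

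Of the 13 members that did not pass the filter, none exceeded 38 counts in a start-point library. MiR-666-3p was at 11.2 to 126 CPM at the start-point and 12.4 to 822 CPM at the end-point, and miR-323-3p at 0 to 69.1 and 0 to 278 CPM. Together with miR-1193-5p, these were called higher when no filter was applied.

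Between sexes, no member was called in edgeR with time point in the model, of 61 members tested and of 1401 smRNAs (0.0%). Mouse was not in this model or in that of DESeq2, so libraries of 1 mouse counted as separate replicates. The 5 female libraries came from mice 9, 11 and 14 only. At an unadjusted p under 0.05 in edgeR there were 11 of the 61 members, a larger share than among all smRNAs tested. That difference in share was not tested. DESeq2 called 2 members, both lower in females, beside 2.5% of all smRNAs called, 0.286% higher and 2.21% lower: miR-654-3p, at -4.96 ± 1.22 (SE) on the log2 scale with an adjusted p of 0.0086, and miR-758-3p, at -1.73 ± 0.55 (SE) with an adjusted p of 0.043. The smallest p in edgeR was for miR-666-5p, with a log2 fold change, female minus male, of 1.33 ± 0.44 (SE) and an adjusted p of 0.40. At the start-point it was at 204 to 1186 CPM in males and 1780.5 to 3114 CPM in females, without overlap. At the end-point it was at 111 to 1361 CPM in males and at 1126 and 1190.1 CPM in females, with overlap. Start-point libraries 1, 6 and 7, which stood apart, were all from males.

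The other miRNAs of the domain, outside the list of numbers, also moved both ways. Of 9 rows, 8 were tested, 3 were higher and 2 lower, beside 17.4% and 16.3% of all smRNAs tested. MiR-1188-3p and miR-1188-5p were higher, with log2 fold changes of 2.44 ± 0.47 (SE) and 1.43 ± 0.40 (SE) and adjusted p of 5.3e-04 and 0.0094. For miR-3070 the 3p arm was higher, at 2.50 ± 0.70 (SE) with an adjusted p of 0.0088. Its 5p arm was lower, at -2.58 ± 0.58 (SE) with an adjusted p of 0.0016. A second 3p row, miR-3070-2-3p, was not called, at -0.57 ± 0.35 (SE) with an adjusted p of 0.21. MiR-3072-5p was also lower, at -2.50 ± 0.73 (SE) with an adjusted p of 0.012. With mouse as a block only miR-3070-5p stayed called, at an adjusted p of 0.018.

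Marker lists of cells that could contribute vesicles were also examined, and their counts of calls stand beside the 17.4% higher and 16.3% lower over all smRNAs tested. Of 14 tested neuronal rows 4 were higher and 1 lower, and their summed share was 0.420 to 1.79% at the start-point and 0.416 to 1.04% at the end-point. Of 15 tested intestinal epithelial rows 5 were higher and 4 lower, with shares of 0.512 to 2.11% and 0.449 to 4.13%. Of 7 tested leukocyte rows 1 was higher and 1 lower, with shares of 0.132 to 0.410% and 0.0775 to 0.341%. None of 3 tested red cell rows was called. At an unadjusted p under 0.05 in edgeR there were 2, beside 571 of all 1270 smRNAs tested. Red cell shares were 0.0410 to 0.126% and 0.00556 to 0.107%. Of defining markers, the epithelial miR-375-3p and the neuronal miR-124-3p had counts in every library, and the leukocyte miR-142a-3p was at 0 in at least 1 end-point library. Other rows of these lists went the other way. The leukocyte miR-150-3p, miR-223-3p, miR-223-5p and miR-342-3p had counts in every library. The neuronal miR-9-3p, miR-9-5p, miR-129-2-3p and miR-129-5p reached 0 at the end-point, as did the epithelial miR-200a-3p, miR-200b-5p and miR-375-5p. The part of these cell types in the members' differences was not tested.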

How the data were processed

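Small RNAs from fecal exosomes of 17 libraries were analysed from a deposited table of whole-number read counts, with no normalization by the authors in its values. Per the labels' protocols, 2 pellets were homogenised, filtered at 0.2 µm and precipitated with ExoQuick TC, and 50 to 150 ng of RNA entered the QIAseq miRNA kit, whose molecular identifiers mark PCR copies. The submitters' processing notes name bcl2fastq and GRCm38; the aligner, the counting tool and the use of the identifiers are not given in the sources used here. Separate collection of most samples follows from the mouse labels. P-values over the pair of end-point libraries labelled mouse 1 may measure technical spread.

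Counts were tested in edgeR 4.0.16 (R 4.3.3) by the quasi-likelihood F-test with TMM factors, filterByExpr and Benjamini-Hochberg adjustment over all smRNAs tested, at 0.05; SEs came from the same fits. The default legacy version of this test was run first and gave 10 members higher and 7 lower and 402 calls over all smRNAs. The newer version, with 428 calls, was then taken as the main test to follow an earlier description of these data, a choice made with both results known. CPM values are counts over library totals. Sex was tested with time point in the model. The cluster members, marker lists and region groups were chosen with earlier results of these data known. Members named with values were those called, the 10 with the highest mean CPM, both arms of a hairpin with 1 arm called, and the smallest p for sex. Others were named after their values were seen. Sequences and gene positions came from RefSeq (GRCm38.p6) and host features from GENCODE vM21. The same scripts were tested on simulated counts.

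Mouse labels pair the libraries. Same-mouse deviations from group means had correlations from -0.07 to 0.26. Alternatives were DESeq2 1.42.0, other scalings and filters, mouse as a block, mouse 1's end-point libraries summed, males only, and libraries left out; the legacy version, the exclusion of miR-496b and that of start-point libraries 1, 6 and 7 were added after seeing the data.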

Additional observations from a re-analysis of the deposited data

Results flagged for a closer look

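The rule used to flag a library has a nominal rate of about 1 in 20 groups. Members were partly chosen by their values and groups share libraries, so a count of flags cannot be judged against that rate. Among the 62 groups of values examined, 10 held a library far from all others, each of the 10 being 1 member at 1 time point. At the end-point these were miR-758-3p in library 3 (3190 CPM), miR-411-3p in library 5 (25400 CPM), miR-487b-5p in library 2 (7800 CPM), miR-654-3p in library 2 (6890 CPM), miR-770-3p in library 4 (4430 CPM) and miR-540-5p in library 1 (1040 CPM). At the start-point they were miR-770-5p (1120 CPM), miR-543-5p (591 CPM) and miR-494-3p (2600 CPM), all in library 10, and miR-431-5p in library 3 (11400 CPM).

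MiR-431-3p differed in opposite directions between time points in the sexes, a difference that was not tested. In the females the level went from 344 to 854 CPM in mouse 9 and from 192.1 to 454 CPM in mouse 11. All 4 males with both time points were lower at the end-point, though mouse 7 was almost unchanged, at 87.5 and 84.4 CPM. The male end-point libraries 1 to 5 held only 0, 13, 6, 4 and 10 counts. The mean within-mouse change in males minus that in females was -451 CPM.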

How the results depend on the processing

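Leaving out each library in turn gave 9 to 13 members higher and 5 to 9 lower at the end-point, with no member called between sexes in the edgeR fits. Members higher and lower, from 10 and 7, became 3 and 3 with mouse as a replicate block and 3 and 2 with that block and without the second library of mouse 1. The latter fit called 8.77% of the 57 members tested, beside 6.49% of 1309 smRNAs, of which 36 were higher and 49 lower. The members higher and lower became 6 and 4 in males only, 7 and 12 with library totals, 11 and 11 in DESeq2 and 9 and 4 without start-point libraries 1, 6 and 7. With mouse 1's end-point libraries summed they became 13 and 10, or 40.35% of the members tested, beside 36.38% of all smRNAs. DESeq2 called 2 members between sexes. The block kept miR-1193-3p, miR-369-3p, miR-758-3p, miR-770-5p, miR-370-5p and miR-673-3p. With the block and without the second library of mouse 1, miR-369-3p, miR-770-5p and miR-673-3p lost their calls, while miR-543-5p was called as in the fit without the block and miR-666-3p was gained. Library totals ended the calls of miR-540-3p, miR-127-3p and miR-409-3p. In males only miR-540-3p, miR-127-3p, miR-494-3p and miR-300-3p lost theirs, and miR-432, miR-409-3p, miR-370-5p and miR-543-5p were not tested. Over all smRNAs calls went from 428 to 104 with the block. The cause of these differences was not tested, and some of the fits held fewer libraries. The difference in mean share of counts, 1.54 percentage points, was 0.82 to 1.93 with 1 library left out, 2.62 without the low-depth libraries and 2.40 in males only. The members' median log2 fold change was -0.24 to 0.22 with 1 library left out and 0.03 without the low-depth libraries, so its sign is not fixed.

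Of the called members' values in single alternatives, 418 had the same direction and stayed called, 51 were no longer past the threshold and 1 was reversed, miR-432 at -0.074 without the low-depth libraries. Of the members named but not called, 29 values changed sign, and 9 kept their direction and passed the threshold. Of these 9, 4 were of miR-370-3p, 2 of miR-431-3p and 1 each of miR-412-5p, miR-540-5p and miR-654-3p. The DESeq2 value of miR-770-3p both changed sign and passed the threshold. MiR-487b-5p was -0.13 with library totals, -0.12 with the block and without the second library of mouse 1, and -0.34 to 1.06 with 1 library left out. MiR-654-3p was -0.64 with library totals, -0.69 in DESeq2, -0.094 with the block and without that library, -0.41 with mouse 1 summed, and -2.01 to 1.48 with 1 library left out. MiR-770-3p was -0.32 with library totals, -1.29 in DESeq2, -0.51 with the block, -0.90 with the block and without that library, and -1.33 to 0.74 with 1 library left out. In males only, miR-134-5p was -0.19, miR-409-5p 0.61 and miR-431-3p -0.39, and the last was -0.15 with the block and without that library. Without the low-depth libraries miR-127-5p was 0.50 and miR-758-5p 0.092. With 1 library left out miR-666-5p was -0.40 to 0.27 and miR-673-5p -0.55 to 0.25. Depth limits members such as miR-370-5p and miR-543-5p, whose end-point values lay at or under 3 counts.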
